A study of Homo sapiens with 4 samples.

Results

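The 10 genes described here encode transcription factors of the AP-1 and EGR families: FOS, FOSB, FOSL1, FOSL2, JUN, JUNB, JUND, ATF3, EGR1 and EGR3. Their messenger RNA was measured in SCC-15 cells, an established line from a squamous cell carcinoma of the tongue. A probe set, the unit of these Affymetrix arrays, is a group of short probes against 1 transcript region. The 10 genes are covered by 40 probe sets that the platform annotation assigns to 1 gene only, out of 49293 probe sets and 18132 genes in all. The rule that picks them uses gene names, but the set was drawn up with earlier results of these data known.

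The 4 arrays fell into 2 groups of 2. The mimic group had received a synthetic double of a mature microRNA and the control group a negative control (miR-NC), all at 30 nM, 24 h after seeding, with RNA taken 36 h after transfection. The series title and design call the mimic miR-762, whereas the sample labels call it miR-585-5p, so the group is called mimic here. The only comparison in the design asks how RNA levels differ between these groups. All cells were of 1 line, and no label ties the replicates to separate cultures, so p-values measure the spread between arrays, which may be technical.

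The mature forms that RefSeq (GRCh38.p14) lists under the 2 names are shown because they share no seed. Bases 2 to 8, the seed that guides a microRNA to its targets, are in capitals. miR-762 lies at chr16:30893951-30893972 on the plus strand and miR-585-5p at chr5:169263649-169263670 on the minus strand.
hsa-miR-762: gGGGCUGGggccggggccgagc
hsa-miR-585-5p: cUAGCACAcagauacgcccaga

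AP-1 is a dimer of basic leucine zipper proteins. FOS proteins must pair with a JUN protein to bind DNA, JUN proteins can also pair with each other, and ATF3 binds as a homodimer or with JUN proteins. EGR proteins bind GC-rich DNA through zinc fingers. Several of these genes are immediate early genes, whose transcripts rise within minutes of a growth factor or stress signal without new protein synthesis and then decay. EGR1 and FOS are switched on through serum response factor (SRF) and its ETS partners downstream of ERK. In squamous epithelium AP-1 controls differentiation genes and matrix metalloproteinases.

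EGR1 rose and ATF3 fell most among the 10 genes. Each gene was represented by its brightest probe set, and all 10 were above the level of 2.83 (log2 intensity) under which a probe set was counted as dim and not tested. Of the 10, EGR1, FOSL2 and JUN rose, ATF3, EGR3 and FOSB fell, and 4 did not pass (limma, Benjamini-Hochberg adjusted p under 0.05 over 14340 genes). The 6 calls stand against 30.1% of all genes called in either direction. The 3 rises stand against 17.7% called higher and the 3 falls against 12.3% called lower. The groups did not overlap for 9 of the 10 genes, against 70.4% of all genes. The median difference was -0.14 for the 10 genes and -0.02 for all genes, and the median absolute differences were 0.38 and 0.18. Each difference given is the mimic mean less the control mean of log2 RMA intensities. In such bulk RNA, fewer cells that express a gene and less RNA per cell cannot be told apart.

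**Figure D1:**
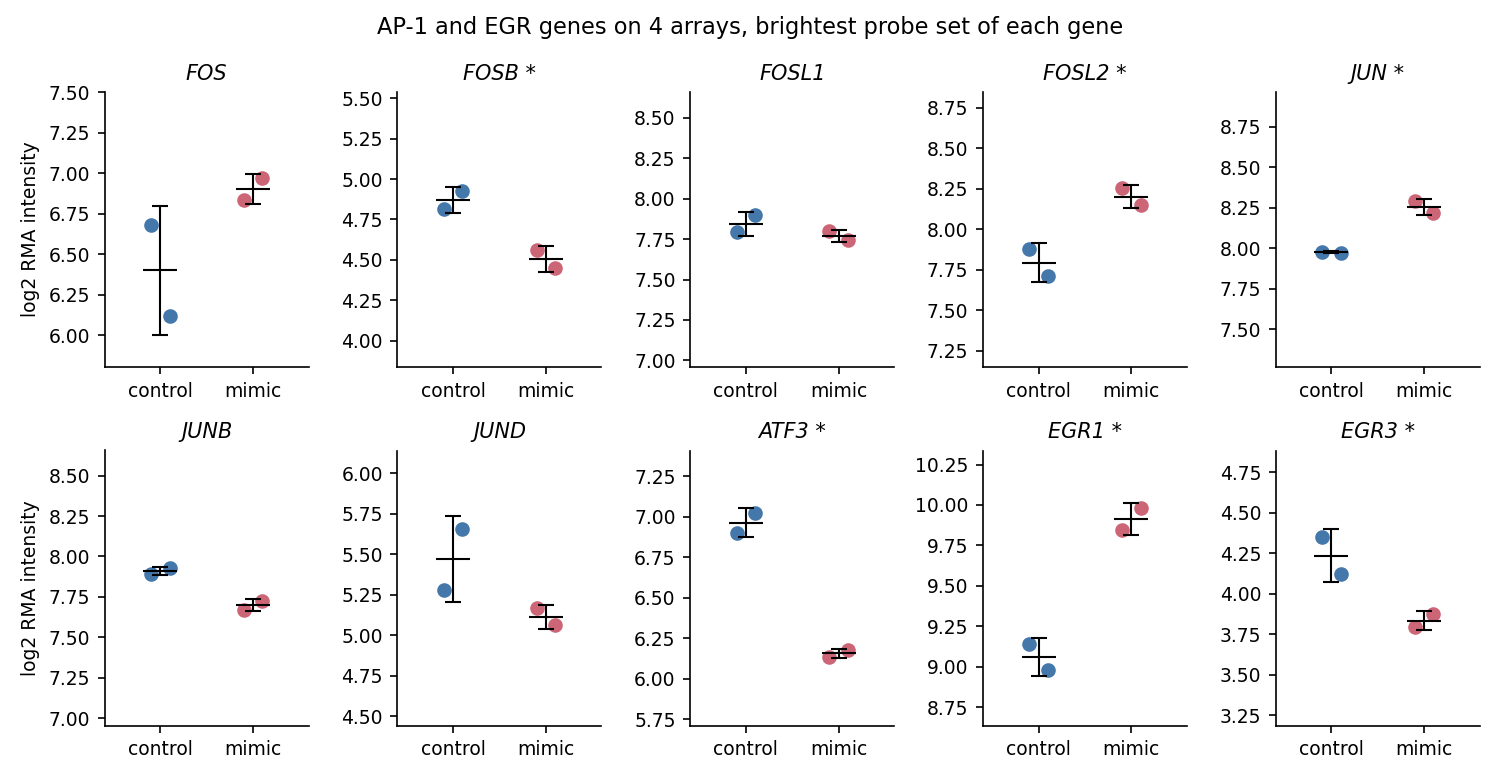
Log2 RMA intensity of the brightest probe set of each gene on the 2 control arrays (blue) and the 2 mimic arrays (red), with group means and SD (n = 2) in black; each panel spans the same log2 range, and an asterisk marks an adjusted p under 0.05. EGR1 was higher and ATF3 lower on both mimic arrays, and FOS and JUND had widely spaced control arrays.

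The share of calls was lower over single probe sets. Of the 40, 35 were above the dim level, and 5 (4 of ATF3 and 1 of EGR3) were not. Of the 35, 6 rose and 4 fell, 28.6% in all, beside 22.4% of the 31711 probe sets tested across the array (14.5% higher and 7.95% lower). The groups did not overlap for 23 of the 35, where the share over all probe sets was 66.6%. Of the 10 called, 6 were the brightest of their gene, 3 were further probe sets of EGR1 and 1 was a further one of ATF3.

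**Figure D2:**
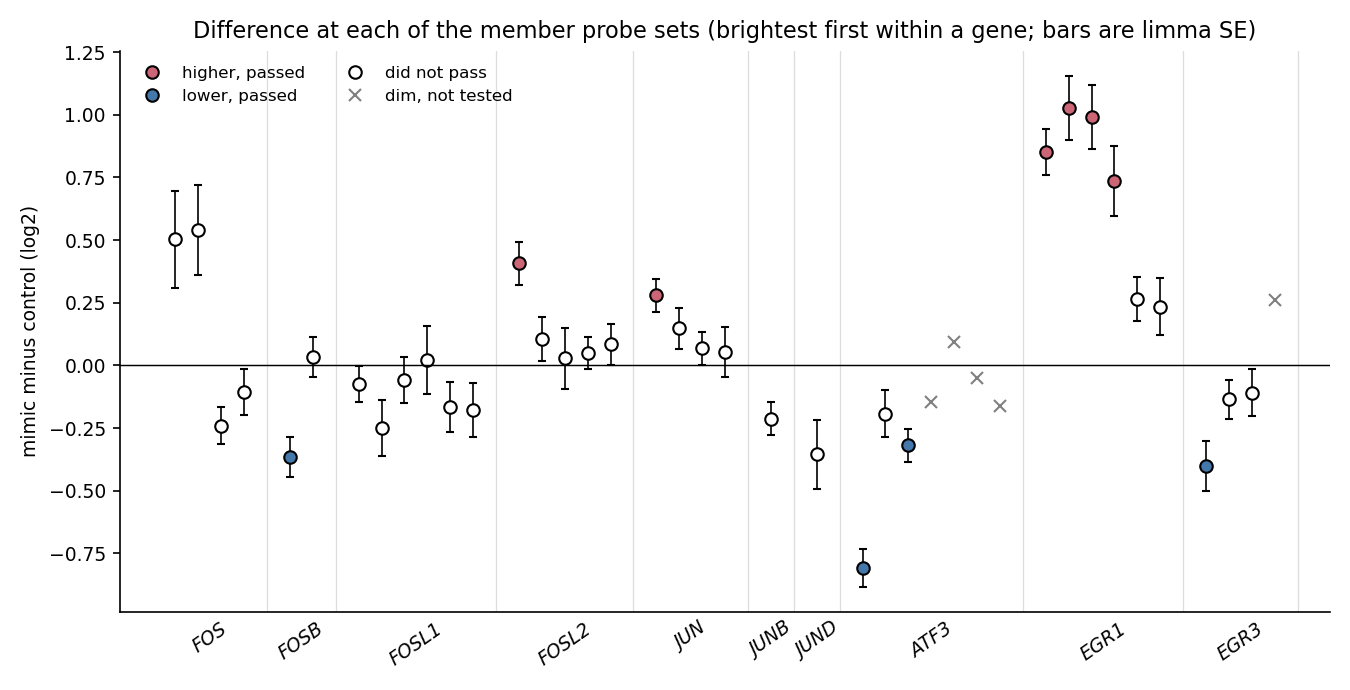
Mimic minus control (log2) at each of the 40 probe sets, ordered within a gene from the brightest to the dimmest, with limma standard errors. Red and blue points rose and fell at an adjusted p under 0.05 over 31711 probe sets, open points did not pass and crosses were dim and not tested. The 4 brightest EGR1 probe sets lie between 0.74 and 1.03, whereas FOS probe sets lie on both sides of 0.

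Every EGR1 probe set was higher in the mimic arrays. EGR1 encodes the zinc finger factor that leads the family as an early growth response gene (chr5:138465479-138469303, RefSeq GRCh38.p14, as for each gene below). Its brightest probe set (11754334_s_at) was at 9.84 and 9.98 in the mimic arrays and at 9.14 and 8.98 in the controls. Both mimic values thus lay above both control values. The mean went from 9.06 ± 0.12 to 9.91 ± 0.099 (SD, n = 2), a rise of 0.85 ± 0.088 (SE) or 1.81-fold (limma adjusted p = 0.00437).

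The next probe set of EGR1 (11717860_a_at) was at 8.16 and 8.47 against 7.37 and 7.20, a difference of 1.03 and the largest rise among the 40 probe sets. Another (11752940_a_at) was at 7.82 and 8.11 against 7.08 and 6.87, a difference of 0.99. In all, 4 of its 6 probe sets rose, and the dimmest 2 gave 0.26 and 0.23 without passing. The groups did not overlap at any of the 6. Averaged over probe sets the gene's difference was 0.68 (adjusted p = 0.00396), still past the threshold. With any 1 array left out the difference was between 0.77 and 0.94. The call was lost each time, as were most or all calls over all genes, so this loss is not particular to EGR1.

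EGR3, a relative of EGR1 on chromosome 8, went the other way at a low level. Its brightest probe set (11747812_a_at) was at 3.79 and 3.87 in the mimic arrays and at 4.35 and 4.12 in the controls. The groups did not overlap, and the difference was -0.40 ± 0.095 (SE), a 1.32-fold fall (limma adjusted p = 0.0353). The other tested probe sets gave -0.14 and -0.11 without passing, and 1 dim probe set had the opposite sign (0.26). With any 1 array left out EGR3 lay between -0.52 and -0.29 and did not pass, as held for most or all called genes. It also missed the threshold when dim probe sets were kept in the test (adjusted p = 0.0503). RMA compresses differences at such levels.

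ATF3 had the largest fall of the 10 genes. It encodes a stress-induced basic leucine zipper factor that as a homodimer represses transcription (chr1:212565407-212620777). Its brightest probe set (11719344_a_at) was at 6.14 and 6.17 in the mimic arrays and at 6.90 and 7.03 in the controls. The mimic arrays were almost equal, and both lay well under the controls. The mean went from 6.96 ± 0.088 to 6.16 ± 0.027 (SD, n = 2), a fall of 1.75-fold (-0.81 ± 0.069 SE, limma adjusted p = 0.00279).

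A second ATF3 probe set fell (11753632_x_at), with 4.52 and 4.48 against 4.78 and 4.85, a difference of -0.32. Another (11753631_a_at) gave -0.19 with groups that did not overlap and did not pass. The remaining 4 were dim in every group, with differences between -0.16 and 0.09. Averaged over the probe sets above the dim level the fall was -0.44 (adjusted p = 0.00733). ATF3 was the only 1 of the 10 genes that stayed past the threshold without control replicate 1 (adjusted p = 0.0464) or control replicate 2 (0.0438). Without mimic replicate 1 or 2 its adjusted p was 0.0646 and 0.0632. No gene of the 14340 passed then, with 4198 and 4269 at an unadjusted p under 0.05.

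The upstream sequences of these 2 genes are shown because they had the largest changes in each direction. Each is the 250 bases before an annotated start, 5' to 3' on the plus strand, from RefSeq (GRCh38.p14). Capitals mark matches to any of 5 motifs: the AP-1 site TGANTCA, the cyclic AMP response element TGACGTCA, the EGR site GCGNGGGCG, the CArG box that SRF binds (each on both strands), and TATAAA on the sense strand. EGR1 is at chr5:138465229-138465478, and ATF3 has 2 listed starts, at chr1:212565157-212565406 and chr1:212614768-212615017.
EGR1: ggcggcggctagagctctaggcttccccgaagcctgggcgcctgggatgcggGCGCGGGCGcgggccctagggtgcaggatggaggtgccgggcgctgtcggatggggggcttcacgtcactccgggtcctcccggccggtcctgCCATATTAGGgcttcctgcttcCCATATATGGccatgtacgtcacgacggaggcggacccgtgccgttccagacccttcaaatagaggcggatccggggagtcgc
ATF3 upstream start: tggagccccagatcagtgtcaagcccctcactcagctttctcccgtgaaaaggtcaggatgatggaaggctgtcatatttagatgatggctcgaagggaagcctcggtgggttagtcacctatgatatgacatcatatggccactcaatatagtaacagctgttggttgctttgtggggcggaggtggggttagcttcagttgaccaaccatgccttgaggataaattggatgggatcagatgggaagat
ATF3 downstream start: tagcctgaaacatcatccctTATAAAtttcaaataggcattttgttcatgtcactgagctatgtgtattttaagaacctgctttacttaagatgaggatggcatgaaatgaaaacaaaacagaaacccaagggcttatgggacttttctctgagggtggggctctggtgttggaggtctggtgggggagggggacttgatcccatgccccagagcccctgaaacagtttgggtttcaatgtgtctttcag

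EGR1 had 2 CArG boxes, CCATATTAGG and CCATATATGG, with their first bases 105 and 83 bases before the start, and 1 EGR site (GCGCGGGCG) 198 bases before it. Over 35116 promoters of the same length, 1.16% held a CArG box and 8.41% an EGR site. The downstream ATF3 start had TATAAA 230 bases before it, a match found in 6.80% of all promoters, and the upstream start had none of the 5 motifs in this window. The search covered 9 promoters of 8 of the 10 genes and left out EGR3 and FOSL1. The promoters of JUN and FOSL2 held none of the motifs. No match to TGANTCA was found in the 9, against 6.57% of all promoters. JUND alone of the 9 held TGACGTCA (1.65% of all), and FOS, FOSB and JUNB had TATAAA 33, 30 and 31 bases before the start. No matches overlapped in these 9 promoters. A match is a run of letters and was not tested as a binding site. Whether the annotated starts are used in these cells was not tested either.

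The FOS genes, whose proteins are the JUN partners in AP-1, did not move as 1 group: FOSL2 rose, FOSB fell, and FOS and FOSL1 did not pass. FOSL2 (chr2:28392858-28417317) encodes FRA2, which unlike FOS lacks a strong activation domain. At its brightest probe set (11763171_at) FOSL2 was at 8.25 and 8.15 in the mimic arrays and at 7.88 and 7.71 in the controls. The groups were apart by more than either spread, and the rise was 0.41 ± 0.083 (SE), 1.33-fold (limma adjusted p = 0.0241). Its 4 other probe sets gave only 0.03 to 0.10 and did not pass, and averaged over all 5 the difference was 0.13 (adjusted p = 0.207). With any 1 array left out FOSL2 was between 0.32 and 0.49 and did not pass, as held for most or all called genes.

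FOSB (chr19:45467996-45475179) encodes a further FOS protein with a short splice form. Its brightest probe set (11717345_a_at) was at 4.56 and 4.45 in the mimic arrays and at 4.81 and 4.93 in the controls. The groups did not overlap, and the fall was 1.29-fold (-0.37 ± 0.075 SE, limma adjusted p = 0.0245). The second probe set of FOSB showed no such fall, with 4.56 and 4.56 against 4.45 and 4.61. Averaged over both, the difference was -0.17 (adjusted p = 0.128). With any 1 array left out the difference at the brightest probe set was between -0.42 and -0.31. It did not pass, as held for most or all called genes.

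FOS itself (chr14:75278828-75282230), the prototype of the family, was at 6.84 and 6.97 in the mimic arrays and at 6.68 and 6.12 in the controls (11734659_a_at). The mimic values were the higher ones, but the control arrays lay further apart than the nearest control and mimic arrays. The difference of 0.50 ± 0.19 (SE) did not pass (limma adjusted p = 0.107; unadjusted 95% interval 0.01 to 0.997). Without control replicate 2 it was 0.22, and without control replicate 1 it was 0.78.

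A second FOS probe set (11749291_a_at) had the same pattern, at 6.17 and 6.40 against 5.99 and 5.50, a difference of 0.54. The other 2 gave -0.24 and -0.11. At the first of these (11734658_s_at) both mimic values, 5.54 and 5.66, lay under the controls, which were both at 5.84. The 4 FOS probe sets thus split 2 against 2 in sign, none passed, and their mean was 0.17 (adjusted p = 0.265).

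FOSL1 (chr11:65892049-65900545) encodes FRA1, the FOS protein most often linked to invasive carcinoma cells. The brightest probe set of FOSL1 (11724478_s_at) was at 7.80 and 7.75 in the mimic arrays and at 7.79 and 7.90 in the controls. The groups overlapped, and the difference of -0.07 ± 0.067 (SE) had an unadjusted 95% interval of -0.25 to 0.10 (limma adjusted p = 0.431). None of its 6 probe sets passed, and they lay between -0.25 and 0.02.

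Among the JUN genes, JUN rose slightly and the difference was positive at all of its probe sets, while JUNB and JUND had negative differences that did not pass. JUN (chr1:58780791-58784047) encodes the strongest activator of the 3. Its brightest probe set (11718394_at) was at 8.29 and 8.22 in the mimic arrays and at 7.98 and 7.97 in the controls. The control arrays were almost equal, and the rise was 0.28 ± 0.060 (SE), 1.21-fold (limma adjusted p = 0.0272). The 3 other probe sets gave 0.15, 0.07 and 0.05 without passing, and the groups did not overlap at 3 of the 4. The call was lost after quantile normalization (0.20, adjusted p = 0.0619) and on averaging over probe sets (0.14, adjusted p = 0.120). With any 1 array left out the difference was 0.24 to 0.32. The call was lost then too, as were most or all calls over all genes.

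JUNB (chr19:12791486-12793315) and JUND (chr19:18279694-18281622) can oppose JUN on some promoters, and each had 1 probe set. JUNB (11715673_x_at) was at 7.67 and 7.72 in the mimic arrays and at 7.89 and 7.93 in the controls. The groups did not overlap, and the difference of -0.21 ± 0.059 (SE) narrowly missed the threshold (limma adjusted p = 0.0516). JUNB passed in 5 of its 12 alternatives, such as quantile normalization (-0.30, adjusted p = 0.0192). JUND (11757969_x_at) was at 5.17 and 5.06 against 5.28 and 5.66. Its control arrays differed by more than the gap to the mimic arrays, and the difference of -0.35 ± 0.14 (SE) did not pass (adjusted p = 0.107; unadjusted 95% interval -0.70 to -0.01). Without control replicate 2 the difference of JUND was -0.17, and without control replicate 1 it was -0.54. After quantile normalization 2 of the 10 genes were higher and 4 lower, in place of 3 and 3. Over all genes the calls shifted as well, from 2544 higher and 1766 lower to 2058 and 2619.

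**Figure D3:**
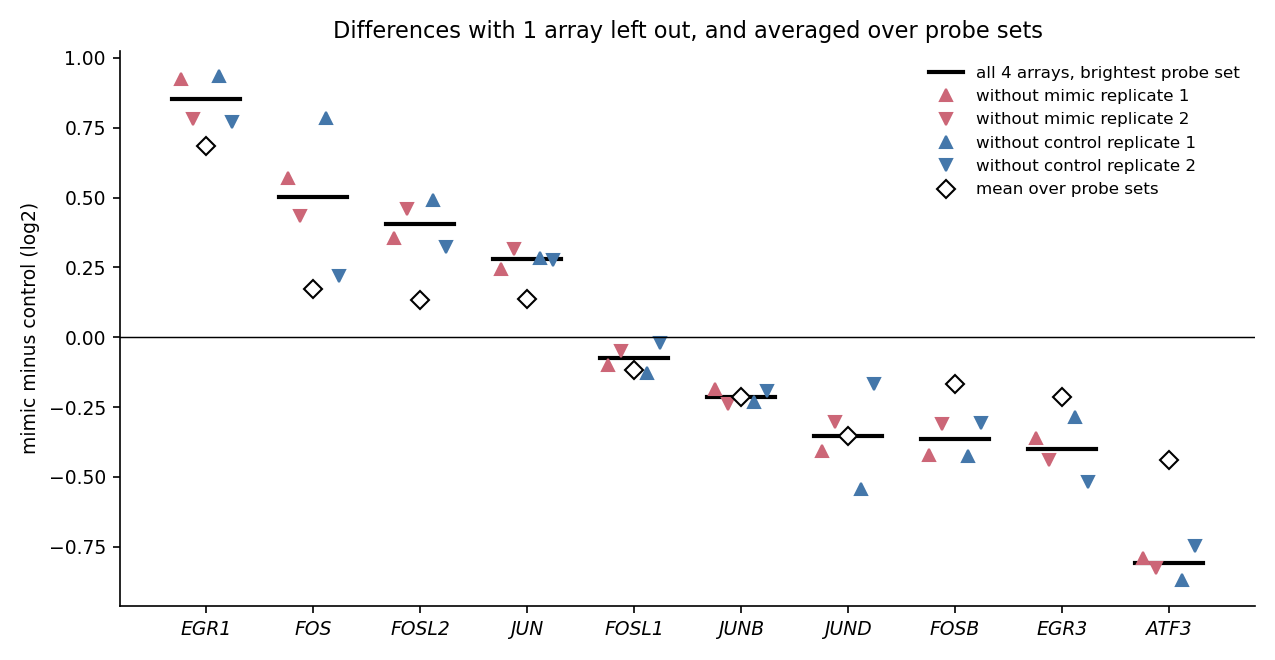
Mimic minus control (log2) of the 10 genes with all 4 arrays (black bars), with 1 array left out (red triangles for a mimic array, blue for a control array) and averaged over the probe sets of a gene (diamonds). No gene crosses 0 when an array is left out; FOS spans 0.22 to 0.78 and JUND -0.54 to -0.17, and averaging over probe sets brings EGR1 to 0.68 and ATF3 to -0.44.

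By distance between the log2 values of the 4 arrays, each centred on its own mean, the 3 tested genes nearest to EGR1 were IVNS1ABP (distance 0.017), PPP2R2B (0.042) and TCFL5 (0.055). They encode a kelch protein, a regulatory subunit of protein phosphatase 2A and a helix-loop-helix factor, and rose by 0.87 each; averaged over its probe sets TCFL5 rose by 0.40. The nearest to ATF3 were GDA (0.039), AP5Z1 (0.073) and STK40 (0.074), which encode guanine deaminase, an adaptor complex subunit and a kinase-like protein. Their differences were -0.79, -0.79 and -0.87, but with _s_at and _x_at probe sets left out they were -0.36, -0.30 and -0.037 and did not pass (adjusted p = 0.102, 0.0511 and 0.753). Likeness over 4 arrays says only that these genes had near-equal differences and spreads.

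Genes that work with the 10 went both ways as well. Over 8 lists, 91 of 106 genes were tested, of which 19 rose and 19 fell, 41.8% in all, beside the 30.1% of all genes. Their median difference was -0.01.

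**Figure D4:**
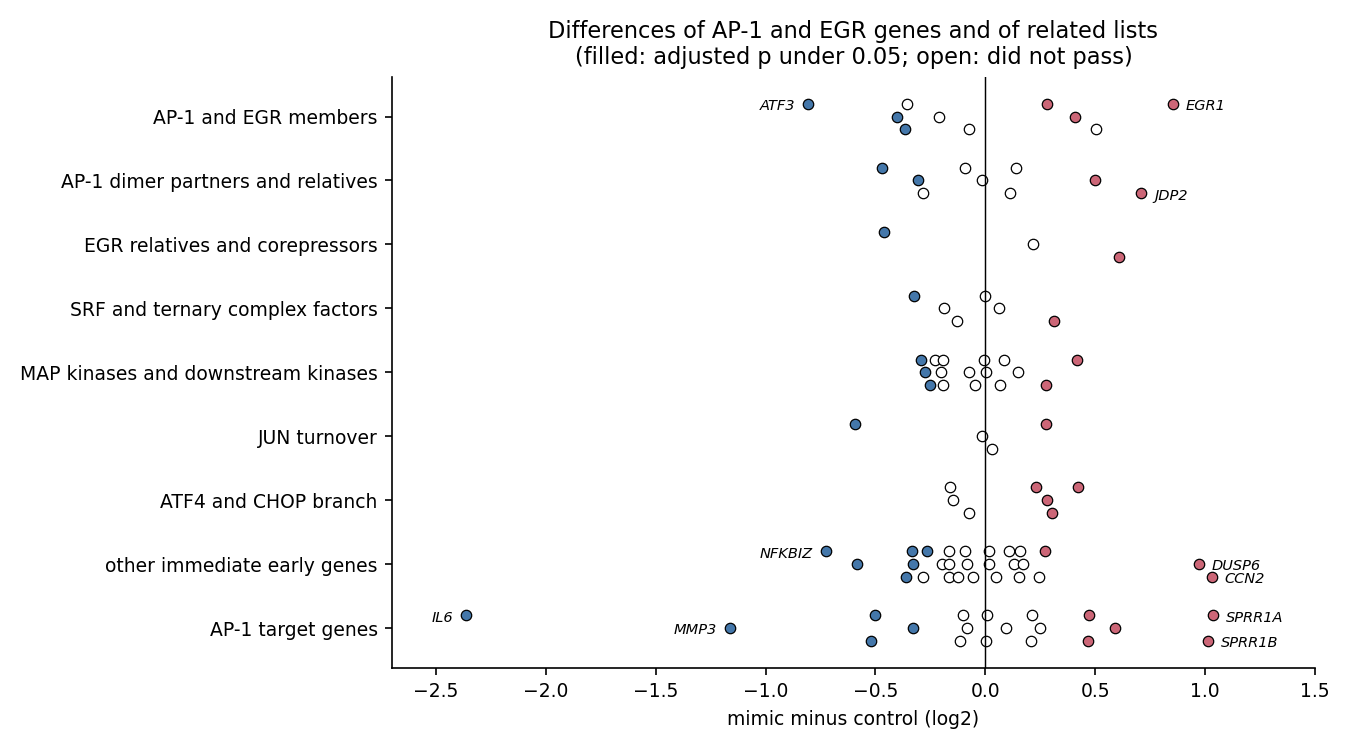
Mimic minus control (log2) of the 10 AP-1 and EGR genes and of the tested genes of 8 related lists; red points rose and blue points fell at a limma adjusted p under 0.05, and open points did not pass. Lists of partners, kinases and targets have points on both sides of 0, with IL6 at -2.37 and SPRR1A at 1.04 as the ends.

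Among partners and relatives of AP-1, 2 of 9 tested genes rose and 2 fell, 5 did not pass, and the median was -0.01. JDP2, a repressor that pairs with JUN, rose by 0.71 ± 0.059 (SE; limma adjusted p = 0.00256), although 1 of its 3 probe sets gave 0.09. ATF2, which binds the cyclic AMP response element with JUN, rose by 0.50 ± 0.070, with probe sets from 0.20 to 0.50. The ATF2 call was lost on averaging over probe sets and with _s_at and _x_at probe sets left out, which left 1 partner higher. The small MAF genes MAFG (-0.47 ± 0.056) and MAFF (-0.31 ± 0.063) fell, with probe sets from -0.47 to -0.22 and from -0.31 to -0.29. Of 3 EGR relatives and corepressors, NAB1, which binds EGR1 and represses its activity, rose by 0.61 ± 0.074, with 1 of 6 probe sets at -0.03. EGR4 fell by 0.46 ± 0.074, and 1 did not pass. EGR4 was low, at 4.15 and 4.17 in the mimic arrays against 4.54 and 4.69. With a pseudocount of 16 the EGR4 difference was -0.26.

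Of 6 genes of SRF and its partners, 1 rose, 1 fell and 4 did not pass. SRF, the factor that binds CArG boxes, fell by 0.32 ± 0.064 (SE; limma adjusted p = 0.0226), and its second probe set gave -0.10. MRTFB, an actin-controlled coactivator of SRF, rose by 0.31 ± 0.064. Of 16 MAP kinases and downstream kinases, 2 rose, 3 fell and 11 did not pass. RPS6KA5, the nuclear kinase MSK1, rose by 0.42 ± 0.072 and MAPK8, the JUN kinase JNK1, by 0.28 ± 0.063. MAP2K4, which activates JNK, fell by 0.29 ± 0.056, MAPK10 (JNK3) by 0.27 ± 0.074 and RPS6KA1 (RSK1) by 0.25 ± 0.069. Among the settings that kept all 4 arrays, MAPK10 lost its call in 6 and RPS6KA1, MAPK8 and SRF in 3 each. MRTFB lost it in 2, MAP2K4 in 1 and RPS6KA5 in 0. After quantile normalization MAPK8 was at 0.17 (adjusted p = 0.0967) and MRTFB at 0.20 (adjusted p = 0.0697). MAPK10 was low, and with a pseudocount of 16 its difference was -0.11 (adjusted p = 0.118). The calls of MAPK10 and RPS6KA1 were close to the threshold and were lost when dim probe sets were kept (adjusted p = 0.0682 and 0.0715). Of the kinases 2 rose and 1 fell then, and with a pseudocount of 16 there were 2 and 6.

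FBXW7, a ubiquitin ligase subunit that targets JUN and other proteins for degradation, fell by 0.59 ± 0.090 (SE; limma adjusted p = 0.0117), and its 3 probe sets lay between -0.69 and -0.38. DET1, of another JUN ligase, rose by 0.28 ± 0.068, while its second probe set gave -0.27 and the call was lost with dim probe sets kept (adjusted p = 0.0570). The other 2 of these 4 turnover genes did not pass. In the ATF4 and CHOP branch, which induces ATF3 under amino acid or endoplasmic reticulum stress, 4 of 7 genes rose, 0 fell and 3 did not pass, beside 17.7% of all genes called higher. CHAC1 rose by 0.42 ± 0.077, but its second probe set gave -0.40 and the average over its probe sets was 0.013. TRIB3 rose by 0.31 ± 0.070 and ATF4 itself by 0.28 ± 0.058. The 3 that did not pass had negative differences: DDIT3, which encodes CHOP (-0.14), CEBPB (-0.16) and SESN2 (-0.07). ATF3 fell in the same arrays, and a link between ATF3 and this branch was not tested.

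Among 27 other immediate early genes, 3 rose and 6 fell, 18 did not pass, and the median was -0.08. CCN2, a matricellular growth factor gene, rose 2.04-fold (1.03 ± 0.064 SE, limma adjusted p = 0.00144). Its level was low, at 4.58 and 4.59 in the mimic arrays against 3.51 and 3.60. With a pseudocount of 16 the rise of CCN2 was 0.53. DUSP6, the ERK phosphatase that ERK itself induces, rose 1.96-fold (0.97 ± 0.094), and its 4 probe sets lay between 0.85 and 0.99. PHLDA1 rose by 0.27 ± 0.063, with probe sets up to 0.81. NFKBIZ, an IkB protein that acts in the nucleus, fell by 0.73 ± 0.056, SOCS3, the cytokine signalling inhibitor, by 0.58 ± 0.10 and CSRNP1 by 0.36 ± 0.093. SOCS3 was low as well, at 4.13 and 4.32 in the mimic arrays against 4.90 and 4.72. With a pseudocount of 16 its difference was -0.34. With dim probe sets kept 2 of the other immediate early genes were higher and 3 lower. PHLDA1 (adjusted p = 0.0504) and CSRNP1 (0.0604) did not pass then. With a pseudocount of 16 the counts were 5 and 6, and with a trend in the prior 6 and 8.

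Of 19 genes known as AP-1 targets, 5 rose and 5 fell, 9 did not pass, and the median was 0.01. The cornified envelope genes SPRR1A (1.04 ± 0.085 SE) and SPRR1B (1.02 ± 0.099; limma adjusted p = 0.00379) rose about equally. VEGFA rose by 0.59 ± 0.057, with probe sets from -0.18 to 0.73. IL6 fell by 2.37 ± 0.11, although its second probe set gave -0.16. The matrix metalloproteinase genes MMP3 (-1.16 ± 0.11) and MMP13 (-0.52 ± 0.082) fell, and MMP13 lay between -0.56 and -0.40 at its 4 probe sets. MMP3 was low, at 3.89 and 3.84 in the mimic arrays against 4.87 and 5.19. With a pseudocount of 16 its difference was -0.67.

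Without control replicate 1 the calls left in these lists were 1 rise among AP-1 partners, 1 rise and 1 fall among other immediate early genes and 1 rise and 2 falls among AP-1 targets. Without control replicate 2 they were 1, 1 and 1, and 3 and 4, in the same order. After quantile normalization 0 and 3 SRF genes, 1 and 5 kinases, 0 and 1 turnover genes, 3 and 1 genes of the ATF4 branch and 2 and 8 other immediate early genes were higher and lower. Over all genes that setting gave 2058 higher and 2619 lower, in place of 2544 and 1766.

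Markers of squamous epithelium were high on all 4 arrays. All 6 lay between 9.27 and 12.32, and KRT14 (1.15) and KRT5 (0.48) rose. EPCAM (0.15), CDH1 (0.04), DSG3 (-0.07) and SFN (-0.14) did not pass. Leukocyte PTPRC was under the dim level on every array (1.20 to 1.52), as were fibroblast COL3A1, DCN and LUM. Leukocyte CD3E (3.39 to 3.50) and CD14 (4.66 to 5.38) were above it, as were COL1A1, COL1A2, PDGFRB and the 4 endothelial markers. CD14 rose by 0.53 (limma adjusted p = 0.0330). The summed intensity of 4 endothelial markers was 73.6 to 74.2 in mimic and 80.9 to 83.1 in control arrays, that of 6 fibroblast markers 55.4 to 62.4 and 66.0 to 68.0, and that of 3 leukocyte markers 54.5 to 54.6 and 39.0 to 45.8, to which CD14 gave the most. Their part in the results was not tested. Replicate arrays correlated at 0.998 (mimic) and 0.997 (control) across all probe sets, and mimic with control arrays at 0.991.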

How the data were processed

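RNA of 2 mimic and 2 control samples was hybridised to 1-colour Affymetrix arrays. The authors deposited 1 intensity per probe set and array, on a linear scale, made with RMA (background correction, quantile normalization, summary per probe set) per the submitters' processing notes, whose version is not given in the sources used here. Log2 was taken. Genes were named by identifier through RefSeq GRCh38.p14 (44961 of 44988 single-symbol probe sets). The lowest 30% of probe sets by mean were left out, and each gene took its brightest remaining probe set, judged over all 4 arrays. Limma 3.58.1 (lmFit, eBayes; R 4.3.3; 4.98 total degrees of freedom) compared the groups, with Benjamini-Hochberg adjustment over all genes, and again over all probe sets. With arrays, their number limits the precision.

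Members and lists were chosen with earlier results of these data known. Named genes were all 10 members, in each list up to 3 called genes per direction, by size, whose groups did not overlap, and the 3 nearest to the member with the largest rise and fall. Genes without a tested probe set were not used here. Same-numbered replicates did not deviate together (r = -0.001 across genes).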

Additional observations from a re-analysis of the deposited data

How the results depend on the processing

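With 2 arrays a group, the counts rest on all 4 arrays. With any 1 left out, nearly all calls among the 10 genes and all calls among their 35 probe sets were lost. Such fits assumed that the lone array of a group varied like the others. With a replicate block, 3 genes passed (1 lower; FOSL2, EGR1 and ATF3) and 5 probe sets (1 lower), although the replicate numbers share no stated pairing. Under the block 0 SRF genes, 1 kinase, 1 turnover gene, 1 gene of the ATF4 branch (in place of 4) and 5 other immediate early genes (2 higher, 3 lower) passed; the AP-1 partner and EGR relative counts stayed, and 5 AP-1 targets were higher and 4 lower. Averaging over probe sets left 1 gene higher (EGR1) and 3 lower (ATF3, EGR3 and JUNB). Without the dim filter 5 probe sets passed (1 lower). Leaving out _s_at and _x_at probe sets turned FOSL1 to 0.023, NAB1 to -0.029 and VEGFA to -0.13, and removed JUNB and JUND. A filter on the lowest 50% removed EGR3. Over all genes 4310 were called, 0 to 963 with 1 array left out and 2918 with the block; over all probe sets 7113, then 0, and 3795 with the block. The other settings (quantile or median scaling, a pseudocount of 16, a trend in the prior) kept the direction of all 10 genes and each count of calls among them within 1.5 times. No detection calls were used, so dim values cannot be told from background.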
